A study of Zea mays with 8 samples.

Results

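The transcripts described here are 353 probe sets of a maize GeneChip that carry no gene in the platform annotation and were higher in DpDf seedlings than in wild-type siblings by close to the ratio of 3 gene copies to 2. They were chosen by a rule on the measured values. A probe set had to have a geometric mean intensity of at least 26.9 over the 8 arrays, a mean log2 difference (DpDf minus wild type) of at least 0.4 and under 0.75 over the 4 replicate pairs, and a difference of at least 0.25 in every pair. The array holds 17734 probe sets, of which 113 are array controls. Of the remaining 17621, 16168 have no gene in the annotation, and 11237 of those reached the level minimum, so that the rule kept 3.14% of them. The genotype difference of these probe sets is therefore fixed by the choice and is described below without a test.

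DpDf (duplicate-deficient) plants derive from the translocation T5-6b of chromosomes 5 and 6. They have a normal chromosome 6 together with a 6-5 chromosome that holds nearly the whole short arm of chromosome 5 but lacks the outermost chromomere of the satellite of chromosome 6. The duplication is thus always measured together with a small deficiency. Both groups were in the B73 inbred background and were siblings from self-pollinated DpDf plants, sorted with a simple sequence repeat marker linked to the chromosome 5 break. Above-ground tissue was taken 11 days after planting from 4 pools of 12 DpDf plants and 4 pools of 12 wild-type plants (WT). Pools with the same replicate number came from the same family, replicates 1 and 3 from one seed source and replicates 2 and 4 from another. The pools are whole shoots, so a change in the number of cells of a type and a change in RNA per cell cannot be told apart.

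In a segmental aneuploid, a gene present in an additional copy is often transcribed in proportion to its dose, which is called a dosage effect. A gene whose transcript stays at the diploid level is said to be dosage compensated, and genes elsewhere can change in trans because a regulator has changed in dose. For 3 copies against 2, a strict dosage effect gives a 1.5-fold level, 0.58 on the log2 scale. The probe sets of this array were built from clusters of expressed sequences. An identifier such as Zm.5449.1.A1_at holds a cluster number, a sub-cluster number and a letter, A or S. The ending _a_at, _s_at or _x_at marks a set whose probes can also match related transcripts. No sequence of these probe sets was used here, and none is given a gene name or a position.

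Median intensities of the non-control probe sets ran from 136 to 139 in the DpDf arrays and from 137 to 142 in the WT arrays. Of 14 leaf and shoot markers, 9 had a probe set, in all 14 probe sets, some of them shared by ppdk1 and pdk1. Of these probe sets 13 were above the level minimum, with mean log2 values of 8.67 to 14.09, and 1 of ppdk1 and pdk1 was below it at 2.55. In contrast, 0 of 3 pollen markers, 0 of 1 root marker and 2 of 6 endosperm markers with a probe set reached it, the 2 through 1 shared probe set. Both shoot meristem markers with a probe set, the homeobox genes kn1 and lg3, passed it. kn1 had log2 values of 7.16, 7.67, 7.63 and 7.68 in the DpDf arrays, against 7.51, 7.79, 8.08 and 7.94 in the WT arrays (difference -0.29, limma adjusted p = 0.362; the replicate block gave 0.0386). lg3 had 6.08, 6.28, 6.61 and 6.48 in DpDf, against 6.06, 6.77, 7.37 and 7.34 in WT (difference -0.53, limma adjusted p = 0.363; the replicate block gave 0.0492). The groups overlapped for both genes, and the part of meristem content in the results was not tested. The log2 difference between 3' and 5' probe sets of 5 control transcripts, a measure of RNA quality, was 1.20 ± 0.23 (SD, n = 4) in DpDf and 0.91 ± 0.13 (SD, n = 4) in WT. DpDf replicates 1 to 4 had values of 1.52, 1.20, 0.98 and 1.09, and WT replicates 1 to 4 had 0.81, 1.07, 0.79 and 0.97, so the groups overlapped.

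The members differed little among themselves, within the range that the rule sets. Their mean log2 difference had a median of 0.53, a 1.45-fold level in DpDf, with quartiles of 0.48 and 0.60 (1.39-fold and 1.52-fold). Over all 11237 tested unannotated probe sets the median was -0.022, with quartiles of -0.11 and 0.074. Of the 353, 125 lay between 0.4 and 0.5, 135 between 0.5 and 0.6 and 93 between 0.6 and 0.75. With log2(3/2) as the mark, 243 members were below it and 110 at or above it.

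Array by array, the median member stood 0.51, 0.56, 0.55 and 0.55 above its WT mean across DpDf replicates 1 to 4, against 0.017, -0.021, 0.022 and -0.0070 in WT replicates 1 to 4. The arrays of the 2 groups did not overlap in this median, which follows from the rule and is a description. Within a group the SD was 0.023 in DpDf (n = 4) and 0.020 in WT (n = 4). For the tested unannotated probe sets as a whole the same median lay between -0.027 and -0.0015 in DpDf and between -0.025 and 0.024 in WT.

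**Figure D1:**
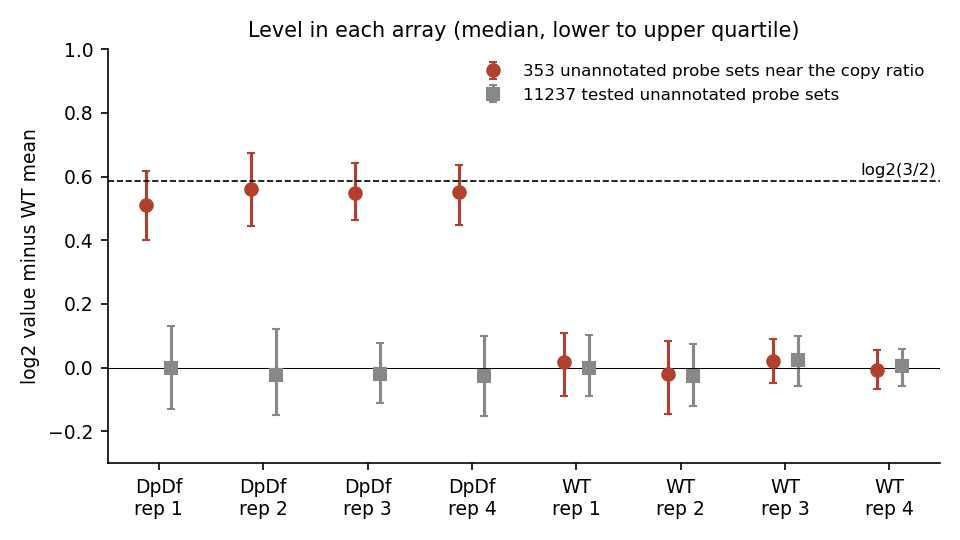
Median (points) and lower to upper quartile (bars) of log2 value minus the WT mean, for the 353 members (circles) and for all 11237 tested unannotated probe sets (squares), in each of the 4 DpDf and 4 WT arrays. Member medians lie between 0.51 and 0.56 in DpDf, near the dashed line at log2(3/2), and between -0.021 and 0.022 in WT. The distance between the groups follows from the rule.

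By pair, the median member difference was 0.47, 0.59, 0.53 and 0.54 for replicates 1 to 4. Pair 1 gave the lowest of the 4 differences for 149 members (42.2%) and the highest for 40, whereas pair 2 gave the lowest for 54 and the highest for 141 (39.9%). DpDf replicate 1, which has the lowest member median of the DpDf arrays, also has the highest 3' minus 5' difference; the part of RNA quality in the spread between pairs was not tested. The rule bounds all 4 pair medians, so their nearness to the copy ratio is a description.

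Arrays of the 2 groups did not overlap for 317 of the 353 members (89.8%), against 6.51% of the 12341 tested probe sets in which the lowest DpDf array lay above the highest WT array. limma, fitted across all 12341, called 296 members higher in DpDf (4.88% of tested probe sets were called, 4.03% higher and 0.851% lower), and with the replicate number as a block 351 (6.81% higher). The rule used this same contrast, so nothing is read from these counts. With the 3' minus 5' difference of each array as a covariate, the members' median difference was 0.57 and 183 were called higher, where 2.47% of tested probe sets were called higher and 0.267% lower. In that fit 23 of the members' intervals held 0. In the fit without covariates the 95% interval held log2(3/2) for 339 members, lay between 0 and log2(3/2) for 13 and lay above log2(3/2) for 1. Of the 339 intervals, 7 also held 0. The rule keeps each member's mean difference around log2(3/2), so nothing is read from the interval counts either.

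The brightest members show the pattern at single probe sets, although a brighter probe set need not stand for a more abundant transcript. Zm.5449.1.A1_at had log2 values of 13.26, 13.46, 13.29 and 13.40 across DpDf replicates 1 to 4, against 12.92, 12.94, 12.87 and 12.81 in WT replicates 1 to 4. Its lowest DpDf pool was above its highest WT pool, and the mean difference was 0.47 ± 0.11 (SD of 4 pairs). Zm.14501.2.A1_at had 12.87, 12.87, 12.93 and 12.95 in DpDf, against 12.38, 12.51, 12.52 and 12.48 in WT, a difference of 0.43 ± 0.060 (SD of 4 pairs). In Zm.5715.1.A2_at the pairs were further apart, with 13.15, 13.30, 13.21 and 13.23 in DpDf, against 12.83, 12.34, 12.61 and 12.41 in WT. The DpDf pools of that probe set lay close together and the WT pools were spread, so that the 4 differences ran from 0.32 in pair 1 to 0.96 in pair 2. The other 5 of the 8 brightest members (Zm.5668.1.S1_at, Zm.16192.1.A1_at, Zm.6645.1.S1_at, Zm.10236.1.A1_a_at and Zm.11806.1.S1_at) had mean differences of 0.50 to 0.58, and in each of them the lowest DpDf pool lay above the highest WT pool.

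Members nearest to the copy ratio spanned the range of signal. Zm.4030.2.A1_at, at a mean log2 value of 12.29, had 12.60, 12.54, 12.62 and 12.57 across DpDf replicates 1 to 4, against 12.05, 11.91, 11.98 and 12.04 in WT, a mean difference of 0.59 ± 0.054 (SD of 4 pairs). Zm.8547.1.A1_at, at 5.07, had 5.65, 5.28, 5.25 and 5.27 in DpDf, against 5.15, 4.78, 4.47 and 4.71 in WT, also 0.59 but with an SD of 0.13. WT replicate 1 came close to the lowest DpDf pools without overlapping them. Zm.7955.1.A1_at, Zm.13020.1.A1_at, Zm.10099.1.A1_at and Zm.19236.1.A1_at, the others of the 6 nearest, had SDs of 0.060, 0.20, 0.19 and 0.12 over the pairs.

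Across members the size of the difference changed little with signal. With the members split into 4 groups by mean log2 value, the median difference was 0.52 (89 members, up to 7.50), 0.56 (88 members, 7.54 to 8.61), 0.54 (88 members, 8.61 to 9.79) and 0.53 (88 members, 9.79 to 13.12). The rule bounds these medians. The members themselves were not confined to 1 range of signal: their mean log2 values had a median of 8.61 and ran from 4.78 to 13.12, against a median of 8.21 and a highest value of 14.53 for all tested unannotated probe sets.

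The most even members had nearly the same difference in every pair. ZmAffx.688.1.A1_at had 11.60, 11.65, 11.65 and 11.63 across DpDf replicates 1 to 4, against 11.13, 11.12, 11.14 and 11.09 in WT, with differences of 0.47, 0.53, 0.52 and 0.54. In Zm.3454.1.S1_at the differences were 0.63, 0.66, 0.70 and 0.72, and in Zm.789.1.S1_at 0.61, 0.69, 0.63 and 0.60. An even difference did not require even levels: Zm.18012.1.A1_at had 8.21, 8.47, 8.06 and 8.10 in DpDf, against 7.77, 8.03, 7.55 and 7.64 in WT, so that both pools of replicate 2 were high together and the differences stayed between 0.44 and 0.51. The SD of the 4 differences had a median of 0.13 over the members and 0.13 over all tested unannotated probe sets.

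At the other end, the least even members were dim or had 1 deviating pair. Zm.14789.1.A1_at had 5.56, 5.50, 5.01 and 5.05 across DpDf replicates 1 to 4, against 4.38, 5.16, 4.64 and 4.69 in WT. Its groups overlapped, and pair 1 gave 1.18 where the other 3 pairs gave 0.34 to 0.37. Zm.6008.1.S1_at gave 1.06 in pair 2, against 0.57, 0.57 and 0.36 in pairs 1, 3 and 4, and Zm.2743.1.A1_a_at gave 0.99 in pair 4, against 0.31, 0.32 and 0.55 in pairs 1 to 3. In Zm.4795.2.A1_x_at, also among the 3 members just above the level minimum, the differences were 0.58, 0.30, 0.41 and 1.11.

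Just inside the lower limit of the mean difference lay Zm.5222.2.A1_x_at (0.40), Zm.4297.1.S1_at (0.40) and Zm.14916.4.S1_a_at (0.40). Just outside it were Zm.7149.1.A1_at (0.398), ZmAffx.681.1.A1_at (0.397) and Zm.13806.1.S1_at (0.395). At the upper limit Zm.17395.1.A1_at (0.748), ZmAffx.15.1.A1_at (0.748) and Zm.6298.1.A1_at (0.746) were inside, and Zm.12157.1.S1_at (0.751), Zm.19263.1.S1_at (0.753) and Zm.316.1.A1_at (0.754) outside. The limits thus cut through continuous values. By the lowest single difference, ZmAffx.42.1.A1_at (0.255), Zm.4696.1.S1_at (0.255) and Zm.2984.2.S1_at (0.256) were inside, and ZmAffx.465.1.A1_at (0.248), Zm.11831.1.S1_a_at (0.248) and Zm.1158.1.A1_at (0.245) outside. By level, Zm.9955.1.A1_at (4.78) and Zm.14663.1.S1_s_at (4.82) were among the lowest inside and Zm.13656.1.S1_at (4.55) the nearest outside.

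Around these limits, the distribution of mean differences was lopsided. In bins of 0.05, the tested unannotated probe sets numbered 97 between 0.30 and 0.35, and then 106, 104, 94 and 97 in the 4 bins up to 0.55, before 62, 40 and 39 in the 3 bins up to 0.70. On the lower side the counts were 152 between -0.35 and -0.30, and then 95, 64, 48 and 24 in the 4 bins down to -0.55, followed by 19, 22 and 18. Differences higher in DpDf thus held a plateau where those lower in DpDf thinned out. In all, 457 unannotated probe sets had a mean difference in the window, 353 of which also met the limit in each pair, against 204 in the window with its signs turned, of which 57 met the turned limit.

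**Figure D2:**
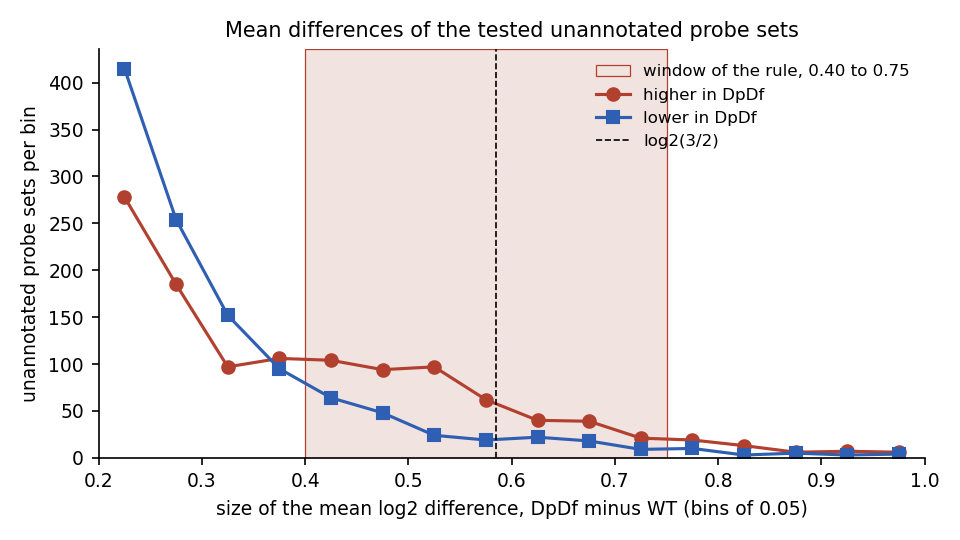
Number of tested unannotated probe sets (vertical axis) by size of the mean log2 difference, DpDf minus WT, in bins of 0.05 (horizontal axis), for differences higher in DpDf (circles) and lower in DpDf (squares). Between 0.35 and 0.55 the higher side stays at 94 to 106 per bin while the lower side goes down to 24; the shaded band is the window of the rule and the dashed line is log2(3/2).

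A pair that took no part in the choice measures the same difference independently of it. When the rule was applied to 3 pairs, 425, 376, 376 and 374 unannotated probe sets met it with pair 1, 2, 3 or 4 left out. Their median difference in the left-out pair was 0.42, 0.56, 0.50 and 0.53, close to the medians of 0.53, 0.52, 0.53 and 0.54 in the pairs that chose them except for pair 1. Over all tested unannotated probe sets the left-out pairs had medians of 0.0032, 0.0048, -0.037 and -0.033. The left-out difference was above 0 in 96.0%, 96.8%, 98.1% and 98.7% of the chosen sets, and was at least 0.25 in 79.5%, 89.6%, 92.8% and 93.0%, where 11.9%, 12.8%, 12.3% and 11.5% of all tested unannotated probe sets reached it.

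Probe sets chosen in the same way for a lower value kept their difference less fully. With pair 1, 2, 3 or 4 left out, 83, 115, 69 and 110 met the rule with its signs turned. Their medians in the left-out pair were -0.35, -0.20, -0.44 and -0.24, against -0.52, -0.50, -0.52 and -0.51 in the choosing pairs. A difference of -0.25 or lower was found for 65.1%, 42.6%, 81.2% and 49.1%, against 14.3%, 8.23%, 12.9% and 12.2% of all tested unannotated probe sets. In each left-out pair this share was below that of the probe sets chosen for a higher value; the 2 directions were not compared by a test.

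**Figure D3:**
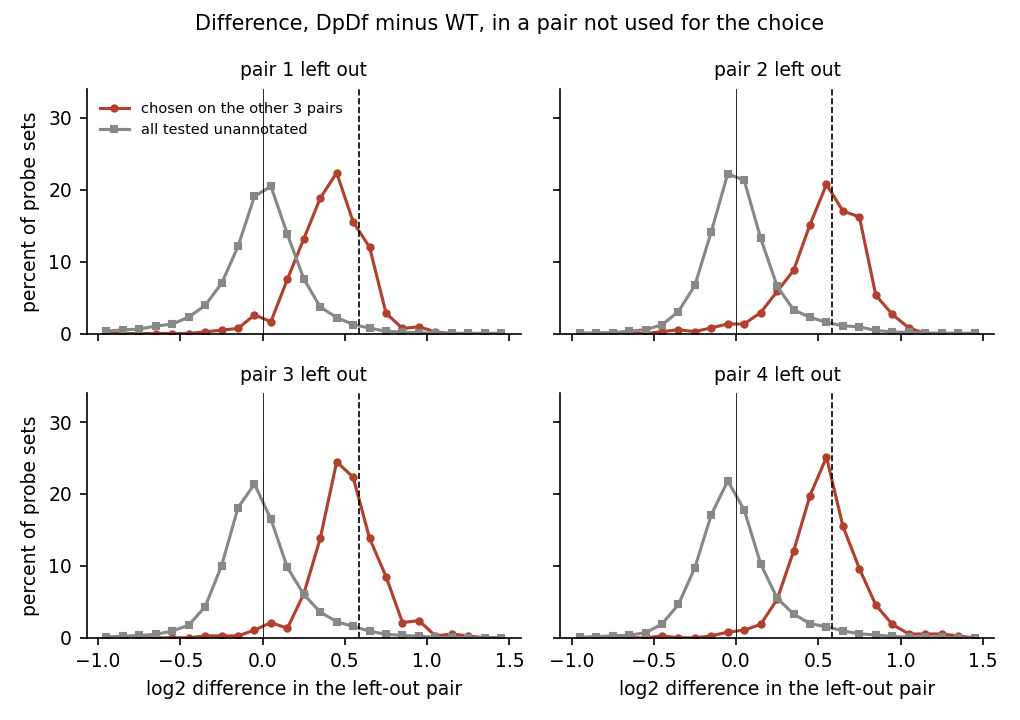
Percent of probe sets (vertical axis) by log2 difference, DpDf minus WT, in the left-out pair (horizontal axis, bins of 0.1), for unannotated probe sets chosen by their differences in the other 3 pairs (circles) and for all tested unannotated probe sets (squares), 1 panel per left-out pair. The chosen sets have medians of 0.42 to 0.56 and lie near the dashed line at log2(3/2), while the medians of all probe sets are within 0.037 of 0.

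Annotated probe sets that met the same values show where such genes lie, which cannot be read for the members. Of 1103 tested probe sets with 1 gene, 30 met the rule (2.72%, against 3.14% of the unannotated ones). On a chromosome of the RefSeq assembly Zm-B73-REFERENCE-NAM-5.0, 29 of the 30 were placed. Of these, 23 (79.3%) lay on the short arm side of chromosome 5, where 6.24% of all placed tested probe sets lie. That side stands for the duplicated segment here, since the break itself was not mapped. The short arm side had 66 tested probe sets, with a median difference of 0.37 over all of them, below the lower limit of the rule. Of the 66, 34.8% met the rule. On the long arm of chromosome 5 it was 0 of 52, around the centromere 0 of 5 and on other chromosomes 6 of 935 (0.642%). With the signs turned, 13 annotated probe sets met the rule, 0 on the short arm side and 13 on other chromosomes.

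The 30 had a median mean difference of 0.52, next to 0.53 for the unannotated members. The rule bounds both medians, so nothing is read from their likeness. Among the brightest on the short arm side were HSP60-1 (LOC542736), a chaperonin gene, with 0.37, 0.42, 0.61 and 0.28 in pairs 1 to 4, eIFiso-4E (LOC541708), encoding a cap-binding translation initiation factor, with 0.37, 0.37, 0.49 and 0.44, and SPT16 (LOC542546), a subunit of the histone chaperone FACT, with 0.34, 0.70, 0.75 and 0.36. LOC542205 had 0.33, 0.48, 0.58 and 0.51. The others of the 8 brightest were RPL19 (LOC542284, the brightest), RPS10 (LOC541869), mbd109 and sqs1 (LOC541614), with mean differences of 0.53, 0.51, 0.68 and 0.60. The 6 placed on other chromosomes, named after their values were seen, were sus2 and hsp26 with zmm6 (LOC542043) on chromosome 1, phytase1 on chromosome 3, rop7 on chromosome 8 and RR6 on chromosome 10, with mean differences of 0.41 to 0.71. The unplaced one was expA4 (0.50). The annotated sets thus include genes off the short arm side, and the share of members that lies on it is not known from these files.

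**Figure D4:**
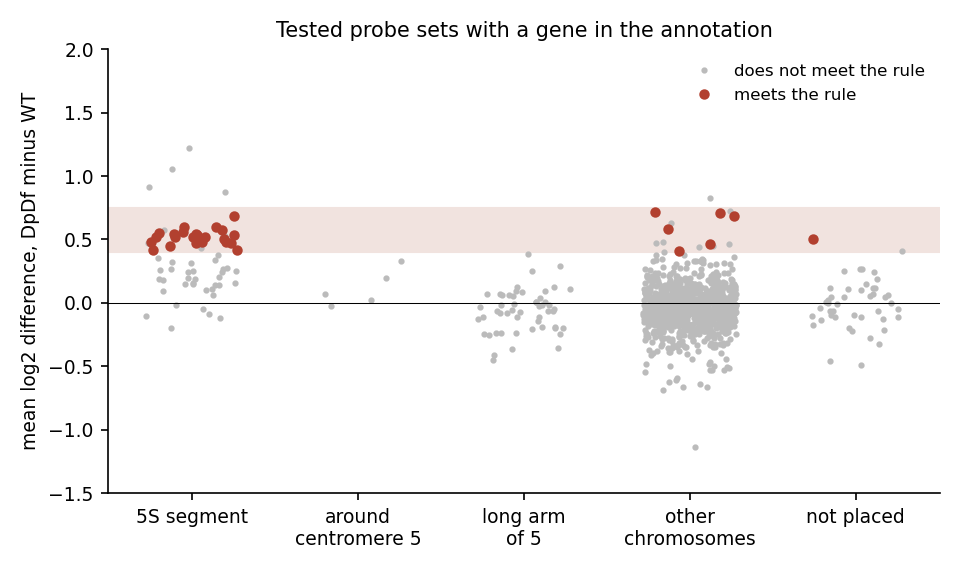
Mean log2 difference, DpDf minus WT, of the 1103 tested probe sets with 1 gene (points) by place: the short arm side of chromosome 5 (labelled segment), around its centromere, its long arm, other chromosomes, and not placed. The 30 that meet the values of the rule are drawn larger, 23 of them on the short arm side; the band marks 0.4 to 0.75, points are spread sideways for display, and 1 probe set lies outside the plotted range.

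The members belong to 348 clusters, so nearly all of them stand for separate transcript clusters. In 344 clusters there was 1 member, in 3 there were 2 and in 1 there were 3. By identifier, 328 members (92.9%) ended in _at alone, against 86.3% of all tested unannotated probe sets, and 13 (3.68%) ended in _a_at, against 8.30%. Letter A was carried by 64.6% of the members and 65.5% of the tested unannotated probe sets, and the ZmAffx prefix by 2.55% against 5.39%.

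In 4 clusters more than 1 probe set met the rule, which fixes that their differences are alike. Cluster Zm.6200 had 3 members. Zm.6200.1.S1_at had log2 values of 9.19, 9.27, 9.44 and 9.38 across DpDf replicates 1 to 4, against 8.67, 8.37, 8.78 and 8.71 in WT, a mean difference of 0.69. Zm.6200.1.S1_a_at had 8.48, 8.38, 8.59 and 8.59, against 7.95, 7.83, 7.95 and 7.96 in WT, a difference of 0.59, and Zm.6200.2.A1_at differed by 0.49. The members Zm.16004.1.A1_at and Zm.16004.1.A1_x_at differed by 0.53 and 0.47, Zm.14916.4.S1_x_at and Zm.14916.4.S1_a_at by 0.54 and 0.40, and Zm.16805.3.S1_at and Zm.16805.3.S1_x_at by 0.52 and 0.42. Probes of such sets can overlap, so they are not independent measurements. Other probe sets of the same clusters did not meet the rule: Zm.16004.1.A1_a_at differed by 0.11, Zm.16004.2.A1_at by -0.13 and Zm.6200.2.S1_a_at by 0.20.

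Other probe sets that carry a member's cluster number are those that did not meet the rule, since any that met it and had no gene were counted as members. Their counts and medians are lowered by that exclusion and are given as a description. There were 139 of them in 73 of the 348 clusters, and 100 reached the level minimum. Of the 100, limma called 7 higher and 0 lower (4.03% and 0.851% over all tested probe sets), and with the replicate block 17 higher and 1 lower (6.81% and 3.35%). Without the level minimum, 9 of all 139 were called higher (2.63% of all probe sets). The 100 had a median difference of 0.048.

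The 16 that share sub-cluster and letter with a member had a median of 0.27, and 15 of them had a higher mean in DpDf. Of the 16, 11 end in _a_at, and those had a median of 0.23. limma called 2 of the 16 (12.5%) higher, and 9 with the replicate block (4.03% and 6.81% over all tested probe sets). The 81 of other sub-clusters, which can stand for other transcripts or related genes, had a median of -0.012, with 40 higher in the mean. limma called 4 of the 81 higher (4.94%), close to the 4.03% over all tested probe sets. Most of the 4 are of a single cluster, Zm.16259. The difference between these groups of probe sets was not tested.

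Zm.5715.1.A1_at, which shares sub-cluster and letter with the member Zm.5715.1.A2_at, had log2 values of 11.29, 11.58, 11.66 and 11.70 across DpDf replicates 1 to 4, against 11.14, 10.48, 10.83 and 10.69 in WT. It rose by 0.78 (SE 0.14, limma adjusted p = 0.0107), with the smallest difference in pair 1, as in the member. Zm.7040.1.S1_x_at rose by 0.49 (SE 0.11, limma adjusted p = 0.0283), where the member Zm.7040.1.S1_at differed by 0.72. Zm.16805.3.S1_a_at, beside 2 members of its sub-cluster, differed by 0.30 (SE 0.14, limma adjusted p = 0.327; the replicate block gave 0.0136).

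In other sub-clusters the values went both ways. Zm.17327.2.S1_at had 6.51, 6.71, 6.23 and 6.63 in DpDf, against 5.64, 6.00, 5.47 and 5.80 in WT, and rose by 0.79 (SE 0.14, limma adjusted p = 0.00978), beside a difference of 0.47 in its member Zm.17327.1.S1_at. The 3 tested probe sets of cluster Zm.16259 beside a member rose by 0.27 to 0.31, each past the limma threshold; the member is Zm.16259.2.A1_x_at (0.41). By contrast, Zm.14916.3.S1_a_at had 6.69, 6.85, 7.13 and 6.66 in DpDf, against 7.58, 7.33, 7.43 and 7.09 in WT, a difference of -0.52 (SE 0.13, limma adjusted p = 0.0563; the replicate block gave 0.0128), while both members of that cluster were higher.

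Of 26 probe sets with the sub-cluster of a member and the opposite letter, 23 stayed below the level minimum, with mean log2 values of 2.69 to 4.51. The members themselves had to pass that minimum, and the files do not state what the letters mean. One that reached the minimum, ZmAffx.1143.1.A1_at, had 5.45, 5.46, 4.94 and 4.73 in DpDf, against 4.40, 4.53, 4.43 and 4.15 in WT, and rose by 0.76 (SE 0.18, limma adjusted p = 0.0392).

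**Figure D5:**
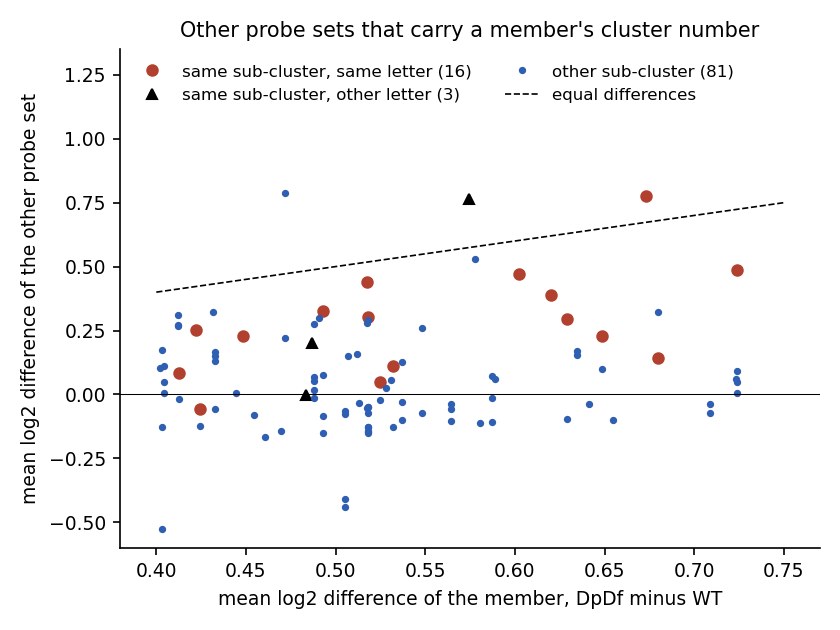
Mean log2 difference, DpDf minus WT, of the 100 other tested probe sets of the members' clusters (vertical axis) against that of the member they belong with (horizontal axis). The 16 that share sub-cluster and letter (large circles) have a median of 0.27 and the 81 of other sub-clusters (small points) have a median of -0.012; the dashed line marks equal differences.

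A few members share a cluster with an annotated probe set. The cluster of Zm.2656.1.S1_at (0.51) holds 2 probe sets of LOC542518, a gene on the short arm side of chromosome 5. One of them, Zm.2656.2.S1_s_at, differed by -0.48, 0.32, 0.25 and 0.55 in pairs 1 to 4 (limma adjusted p = 0.669), and the other was below the level minimum. Zm.5668.1.S1_at (0.58) shares its cluster with Zm.5668.2.A1_at of pdi6 (LOC606413), a protein disulfide isomerase gene on chromosome 3, which differed by -0.11 (SE 0.076, limma adjusted p = 0.503). Zm.206.2.A1_at (0.49) stands beside 4 probe sets of LOC542458 on chromosome 6, which differed by 0.018 to 0.28, and Zm.12428.2.A1_at (0.53) beside one of GRF4 (LOC100101537) on chromosome 2, which differed by 0.055 (SE 0.085, limma adjusted p = 0.801). A shared cluster number does not give the member that gene's name.

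Seed source, which the rule's limits on the differences did not use, separated 1 member. Zm.9955.1.A1_at had log2 values of 6.01 and 5.94 in DpDf replicates 1 and 3 and 4.19 and 4.33 in DpDf replicates 2 and 4, against 5.40 and 5.26 in WT replicates 1 and 3 and 3.43 and 3.73 in WT replicates 2 and 4. Pools of the seed source of replicates 1 and 3 were higher by 1.73 (SE 0.1, limma adjusted p = 0.000684, with genotype in the fit). The genotype difference stayed at 0.61, 0.76, 0.67 and 0.59 in the 4 pairs, although its groups overlapped. Its level lies near the minimum, and in the fit restricted to brighter probe sets it was not tested.

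For the other members no seed source difference passed. The smallest p after it belonged to Zm.19271.1.A1_at (0.40, limma adjusted p = 0.106), Zm.5458.1.A1_at (0.44, limma adjusted p = 0.108) and ZmAffx.738.1.A1_at (0.43, limma adjusted p = 0.109). In total 1 of 353 members was called, against 4 (0.0324%) of the 12341 tested probe sets. At an unadjusted p of 0.05, 72 members (20.4%) and 18.3% of tested probe sets passed, and the median size of the difference was 0.10 over the members and 0.095 over all tested. For the interaction of genotype with seed source, limma called 0 probe sets and 0 members (0% of tested); at an unadjusted p of 0.05, 6 members and 2% of tested probe sets passed. The rule limits how far the pairs of a member can differ, so that the last count is a description.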

How the data were processed

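Each array has 1 linear intensity per probe set, deposited by the authors in 1 table. MAS5 is named, without version or role, in the submitters' processing notes. The sources used here do not give the scaling target. log2 was taken without further normalization or pseudocount. Genes came from the platform annotation (1 probe set with several genes was not named), with updated names and chromosomes from the RefSeq table of Zm-B73-REFERENCE-NAM-5.0, whose coordinates are not given.

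A linear model from limma 3.58.1 (R 4.3.3), with the trend option of eBayes and tested on simulated data, was fitted to the 12341 non-control probe sets with a geometric mean intensity of at least 26.9, 1 of them a reporter control. Genotype was the only term, p-values were Benjamini-Hochberg adjusted over all of them, and the threshold was 0.05. Seed source was tested with genotype in the fit. Same-numbered pools are siblings of 1 family, per the labels. Pools with unlike numbers can also share a seed source, so seed source alone does not set the pairs. Deviations of same-numbered pools from group means correlated at 0.36, 0.51, 0.56 and 0.33. Pools with unlike numbers ran from -0.61 to 0.31, the highest for DpDf replicate 4 with WT replicate 3. The numbers were taken to pair the samples. The main fit leaves this pairing out, and the fit with the replicate block includes it. In the main fit the p-values measure the spread between 4 pools per genotype. With the replicate block they measure the spread of the differences within pairs. For seed source they measure the spread between pools after the genotype term. The number of pools limits the precision of each.

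The members, lists and tests were chosen with earlier results of these data known. Members named are the 8 brightest, the 6 nearest to log2(3/2), the 6 most and 4 least even, those 3 nearest each limit, those sharing a cluster with a member or an annotated probe set, and the 4 with the smallest seed source p; not every one is named. Other probe sets of their clusters were named after their values were seen.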

Additional observations from a re-analysis of the deposited data

Results flagged for a closer look

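Among 49 members chosen by the naming rule and 2 array-level measures, 102 groups of 4 arrays were examined for a single array far from the other 3, and 6 stood out; chance flags about 1 in 20 groups. In DpDf these were replicate 1 of Zm.7955.1.A1_at (10.28, against 10.44 to 10.46 in the other DpDf pools), replicate 1 of Zm.8547.1.A1_at (5.65, against 5.25 to 5.28) and replicate 3 of Zm.18487.1.A1_at (6.39, against 6.68 to 6.73). In WT they were replicate 2 of Zm.6008.1.S1_at (5.99, against 6.56 to 6.65), replicate 1 of ZmAffx.42.1.A1_at (4.69, against 4.96 to 5.00) and replicate 2 of Zm.6200.1.S1_a_at (7.83, against 7.95 to 7.96).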

How the results depend on the processing

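Under other scalings, 16 added to each intensity, no level minimum or a stricter one, 285 to 391 unannotated probe sets met the rule (349 of the 353 under quantile normalization), and with 1 pair left out 374 to 425; 24 to 33 annotated ones met it, and 31 to 40 with 1 pair left out. The members' median was 0.50 with 16 added, 0.55 with centred arrays, 0.57 with the 3' minus 5' covariate, and 0.52 to 0.55 without 1 replicate pair. Members called were 183 with the 3' minus 5' covariate and 236 to 292 without 1 array. Probe sets called higher were 840 with the replicate block, 305 with the covariate and 349 to 491 without 1 array; those called lower were 414 with the block, 185 with seed source as a term, 33 with the covariate and 44 to 154 without 1 array (63 to 67 without a DpDf replicate, 55 without WT replicate 3, 44 without WT replicate 4). The causes were not tested. The interval held log2(3/2) for 272 to 345 members (272 with the stricter filter, which tests 285 of them), and for 329 to 346 without 1 array. The rule largely fixes these interval counts. For seed source, 0 members were called with the stricter filter, which drops Zm.9955.1.A1_at, and 1 to 2 without 1 array (2 without WT replicate 3). Other probe sets of the clusters gave 17 higher calls with the block and 9 without the filter. The mean of the 4 left-out medians was 0.505, against 0.505 under quantile normalization and 0.493 with 16 added, within the spread between pairs. Single pairs moved more: the median of left-out pair 2 went from 0.56 to 0.52 under quantile normalization.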
